A study of Mus musculus with 8 samples.

Results

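The genes described here encode matricellular proteins, which are secreted into the extracellular matrix and act on cells rather than serving as structural fibres. They are *Postn*, *Tgfbi*, *Sparc*, *Smoc2*, *Thbs1*, *Thbs2*, *Tnc*, *Spon2*, *Ctgf* and *Cyr61*, the last 2 also known as *Ccn2* and *Ccn1*. The members were taken by gene symbol, with the identifier of the highest mean kept where a symbol had several, and each of the 10 symbols matched 1 identifier. They make up 10 of the 15880 genes in the table of the series.

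Matricellular proteins bind collagens, growth factors and cell surface receptors such as integrins, and they alter how cells attach, migrate and respond to signals. Many are abundant in developing bone, tendon and periosteum and fall in adult tissue until injury brings them back. Periostin and osteonectin, the products of *Postn* and *Sparc*, are known for their part in the assembly of collagen fibrils, and the CCN proteins for being made rapidly when cells are stretched or stimulated.

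Stromal cells were sorted from the crushed and collagenase-digested bones of newborn *Nes-Gfp* heterozygous mice (C57BL/6, postnatal day 1), whose GFP is driven by nestin regulatory elements. All cells were negative for the surface markers CD45, CD31 and Ter119, and the presence or absence of GFP and of surface Pdgfrα divided them into 4 populations, GFP+ Pdgfrα+, GFP- Pdgfrα+, GFP+ Pdgfrα- and GFP- Pdgfrα-. Each population has 2 libraries, each from a pool of 3 pups and 15000 to 80000 sorted cells, and their RNA was amplified before sequencing. The sort was made to study whether cells that carry the nestin reporter, with or without Pdgfrα, differ in function. GFP marks cells in which the transgene is active, which need not be of a single type, and the spread between libraries is one between pools of pups. *Xist*, a transcript of female cells, was 2.9 to 11.3 in the replicate 1 libraries and 868 to 1379.7 in the replicate 2 libraries. Pool and sex therefore cannot be told apart in that spread.

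Values are normalized signals, which a gene's reads (with 0.5 added) give when scaled to an effective library of 1e6 reads. Whole reads were recovered from 100% of the values (tolerance 0.01 reads), and totals lay between 3221217 and 5302762 reads per library. A value of 0.825 to 1.04 stood for 3 reads, which is the floor used for a library. Intervals and floors reflect counting alone, since amplification copies molecules. Fold changes from limma are those of log2(value + 1) and are too small for genes with low values. A difference is said to be called, higher or lower where its adjusted p, over all 15880 genes and with all 8 libraries in the fit, was at most 0.05. The 6 comparisons between populations share libraries with one another, so their results for a gene are not separate pieces of evidence.

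The sort was visible in the transcripts. *Pdgfra* was 733 and 754 in GFP+ Pdgfrα+ cells and 839 and 794 in GFP- Pdgfrα+ cells. *Pdgfra* was 18.1 and 10.4 in GFP+ Pdgfrα- cells and 3.30 and 4.36 in GFP- Pdgfrα- cells. *Nes* was 57.6 and 72.0 in GFP+ Pdgfrα+ cells and 27.4 and 47.1 in GFP- Pdgfrα+ cells. *Nes* was 149 and 176 in GFP+ Pdgfrα- cells and 3.59 and 9.08 in GFP- Pdgfrα- cells. The endogenous gene was thus highest in the GFP+ Pdgfrα- libraries and was above the GFP- Pdgfrα- libraries in both GFP- Pdgfrα+ libraries too, although these cells lacked GFP. *Ptprc*, which encodes CD45, lay between 0.126 and 11.3, and *Pecam1*, which encodes CD31, between 3.91 and 27.9. The GFP- Pdgfrα- libraries stood apart from the rest. Of their reads, 27.2% and 29.1% fell on *mt-Rnr2*, a ribosomal RNA of mitochondria, against 9.52% to 17.6% in the other 6, and they held erythroid transcripts whose values are given with the cell type markers.

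Together the 10 genes took 3.04% and 2.65% of all reads in GFP+ Pdgfrα+ cells and 2.44% and 2.46% in GFP- Pdgfrα+ cells. The share was 0.593% and 0.643% in GFP+ Pdgfrα- cells and 0.0539% and 0.0769% in GFP- Pdgfrα- cells, so the Pdgfrα+ libraries were above all Pdgfrα- libraries. Most of it came from *Sparc* and *Postn*, which alone took 2.75% and 2.37%, 2.16% and 2.17%, 0.463% and 0.498%, and 0.0438% and 0.0663% of reads in the same order. In these bulk samples fewer cells of a type and less RNA per cell cannot be told apart. On a scale that allows genes to be compared (the mean value per kilobase of exon), *Sparc* had the highest level of the 10 in GFP+ Pdgfrα+ cells, at 5938, followed by *Postn* at 625. In GFP- Pdgfrα+ cells the levels per kilobase were 2649 for *Sparc* and 1529.5 for *Postn*. The next highest level per kilobase was that of *Thbs2* in both Pdgfrα+ populations (147 and 172), but in GFP+ Pdgfrα- cells *Cyr61* stood second at 199, behind *Sparc* at 1009 and ahead of *Postn* at 108. The lowest level per kilobase in GFP+ Pdgfrα+ and GFP- Pdgfrα+ cells was that of *Spon2* (6.41 and 26.9).

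**Figure D1:**
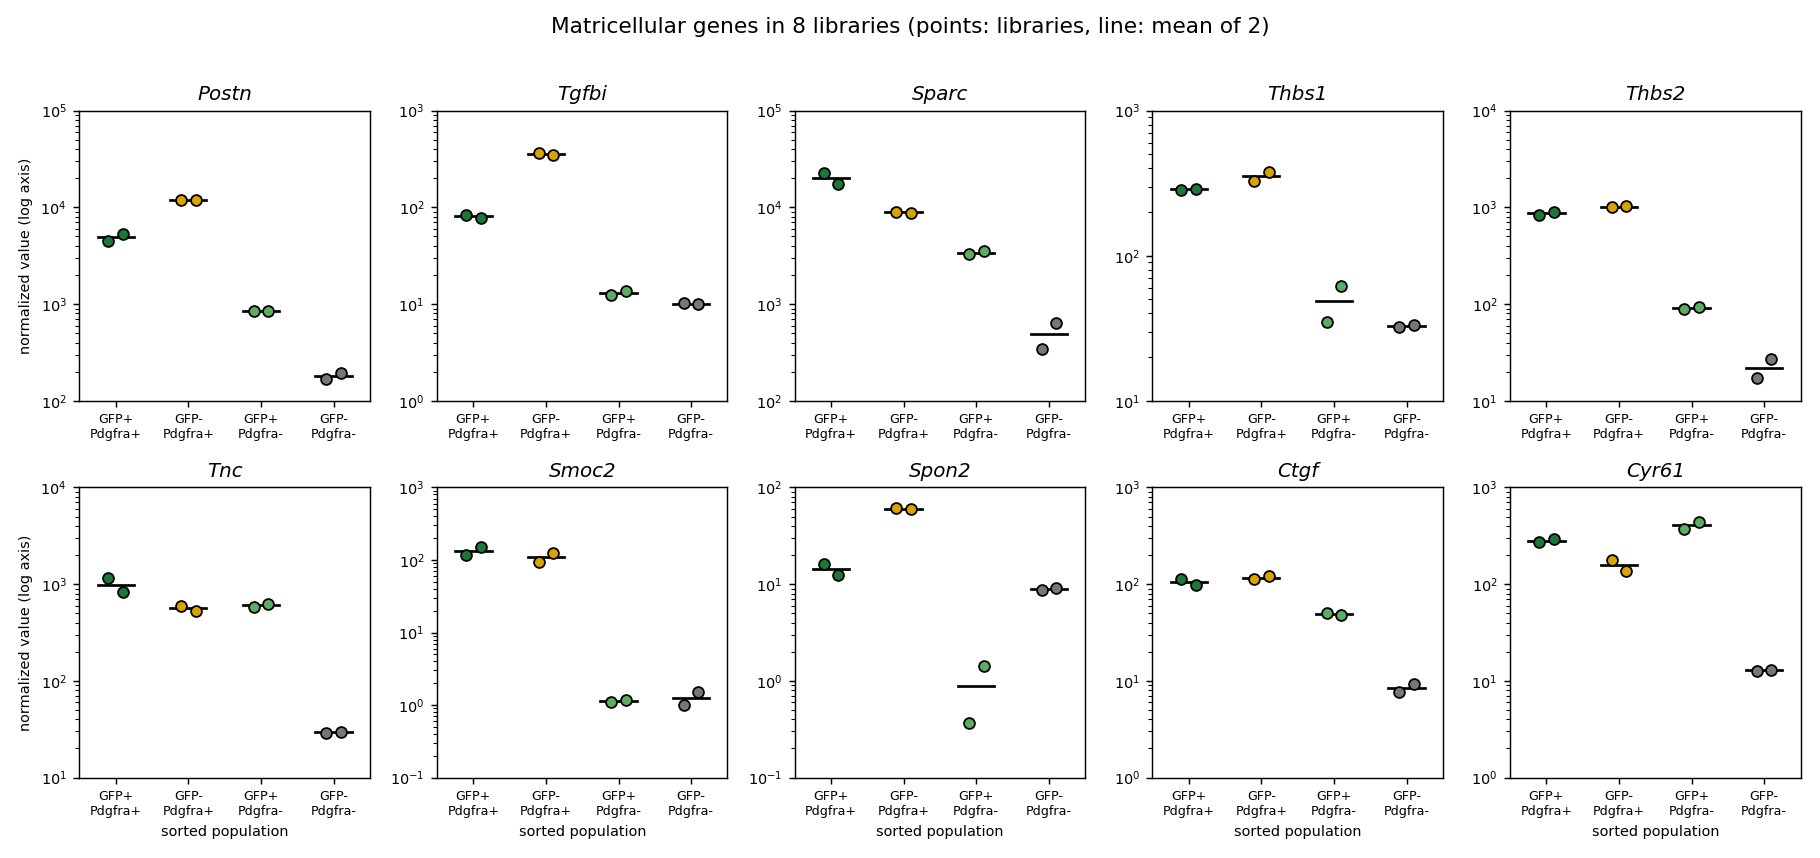
Normalized value of each of the 10 genes in the 4 sorted populations, on log axes that differ between panels. Each point is 1 library and each line the mean of 2, and *Cyr61* is the gene whose highest points, 372 and 437, are in GFP+ Pdgfrα- cells.

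*Postn* and *Tgfbi* encode the secreted proteins with fasciclin domains, periostin and the TGF-beta-induced protein, which bind collagen and integrins. *Postn* (ENSMUSG00000027750, chr3:54165031-54194961, plus strand of NCBIM37) was 4514 and 5289 in GFP+ Pdgfrα+ cells and 11988 and 11989 in GFP- Pdgfrα+ cells. *Postn* was 841 and 855 in GFP+ Pdgfrα- cells and 166 and 195 in GFP- Pdgfrα- cells. The order GFP- Pdgfrα+, GFP+ Pdgfrα+, GFP+ Pdgfrα-, GFP- Pdgfrα- held without overlap between libraries, and every neighbouring pair differed in limma. Between the Pdgfrα+ populations the level was 2.45-fold higher in GFP- cells (log2 fold change -1.29 with a standard error of 0.13, limma adjusted p = 1.41e-04 for GFP+ over GFP-). Among Pdgfrα- cells the direction was the opposite, 4.70-fold higher in GFP+ cells (log2 fold change 2.23 with a standard error of 0.13, limma adjusted p = 3.12e-08). The test of the difference between these effects gave -3.52 (adjusted p = 4.10e-08, limma). *Tgfbi* (ENSMUSG00000035493, chr13:56710920-56740923, plus strand) was 83.3 and 78.3 in GFP+ Pdgfrα+ cells and 365 and 346 in GFP- Pdgfrα+ cells. *Tgfbi* was 12.5 and 13.5 in GFP+ Pdgfrα- cells and 10.2 and 10.02 in GFP- Pdgfrα- cells. Both GFP- Pdgfrα+ libraries were far above the other 6. Its level there was 4.40-fold that of GFP+ Pdgfrα+ cells (log2 fold change -2.12 with a standard error of 0.17, limma adjusted p = 2.91e-05 for GFP+ over GFP-). It was 6.21-fold higher in GFP+ Pdgfrα+ cells than with GFP alone (log2 fold change 2.55 with a standard error of 0.17, limma adjusted p = 9.84e-07). The GFP+ Pdgfrα- and GFP- Pdgfrα- libraries, neighbours at the bottom of the order, did not overlap but their difference missed the threshold (log2 fold change 0.33 with a standard error of 0.17, limma adjusted p = 0.112). Its sign turned when libraries were centred on their median (-0.12) or quantile normalized (-0.07; adjusted p from 0.0918 to 0.753 over the alternatives, limma, edgeR and voom included).

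*Sparc* and *Smoc2* belong to the SPARC family of calcium- and collagen-binding proteins. *Sparc* (ENSMUSG00000018593, chr11:55208002-55233582, minus strand) was 22569 and 17419 in GFP+ Pdgfrα+ cells and 9063 and 8775 in GFP- Pdgfrα+ cells. *Sparc* was 3259 and 3536 in GFP+ Pdgfrα- cells and 345 and 634 in GFP- Pdgfrα- cells. The libraries of the 4 populations did not overlap, with GFP+ Pdgfrα+ cells highest. The gene was 2.24-fold higher there than in GFP- Pdgfrα+ cells (log2 fold change 1.15 with a standard error of 0.23, limma adjusted p = 0.0122). That call was not made without replicate 1 of GFP+ Pdgfrα+ cells (adjusted p = 0.119, limma), without replicate 1 (0.11) or 2 (0.123) of the GFP- Pdgfrα+ cells, and with no mean-variance trend (0.11). Over the 18 alternatives its adjusted p ranged from 8.09e-05 to 0.123. Against GFP+ Pdgfrα- cells, *Sparc* was 5.88-fold higher in GFP+ Pdgfrα+ cells (log2 fold change 2.55 with a standard error of 0.23, limma adjusted p = 9.64e-06), which fell to 0.98 on the log2 scale after quantile normalization (adjusted p range 2.26e-08 to 0.00659). In turn GFP+ Pdgfrα- cells were 6.94-fold above GFP- Pdgfrα- cells (log2 fold change 2.86 with a standard error of 0.23, limma adjusted p = 6.01e-07). The log2 difference of GFP+ Pdgfrα- from GFP- Pdgfrα+ cells was -1.39 (adjusted p = 7.14e-04, limma) and became 0 after quantile normalization (adjusted p = 1, limma; range 8.93e-06 to 1).

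*Smoc2* (ENSMUSG00000023886, chr17:14416513-14541797, plus strand) was 116 and 151 in GFP+ Pdgfrα+ cells and 94.2 and 124 in GFP- Pdgfrα+ cells. *Smoc2* was 1.09 and 1.16 in GFP+ Pdgfrα- cells and 1.01 and 1.53 in GFP- Pdgfrα- cells. The Pdgfrα+ libraries overlapped with each other, as did the Pdgfrα- libraries, and the 2 sets were far apart. Both Pdgfrα- populations were near the floor, with 4 reads in each GFP+ Pdgfrα- library and 3 and 6 reads in the GFP- Pdgfrα- libraries. From summed reads the ratio of GFP+ Pdgfrα+ to GFP+ Pdgfrα- cells was 133 (exact 95% interval 67.1 to 308), and the fit gave a log2 fold change 5.97 with a standard error of 0.28, limma adjusted p = 9.95e-08. GFP+ and GFP- cells did not differ beyond their spread, either among Pdgfrα+ cells (log2 fold change 0.29 with a standard error of 0.28, limma adjusted p = 0.65) or among Pdgfrα- cells (log2 fold change -0.08 with a standard error of 0.28, limma adjusted p = 0.819). The ratio of summed reads of GFP- Pdgfrα- to GFP+ Pdgfrα- cells was 1.17 (exact 95% interval 0.399 to 3.47). With so few reads, counting alone leaves a difference in either direction possible. The fitted value turned to 0.08 with replicate 2 of GFP- Pdgfrα- cells left out, and quantile normalization gave -0.75 (adjusted p = 0.0408, limma; range 0.0408 to 0.902).

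*Thbs1* and *Thbs2* encode the trimeric thrombospondins, which bind CD36, CD47 and integrins and restrain the growth of blood vessels, and the product of *Thbs1* can activate latent TGF-beta. *Thbs1* (ENSMUSG00000040152, chr2:117937612-117952869, plus strand) was 286 and 288 in GFP+ Pdgfrα+ cells and 329 and 375 in GFP- Pdgfrα+ cells. *Thbs1* was 34.8 and 62.1 in GFP+ Pdgfrα- cells and 32.3 and 33.4 in GFP- Pdgfrα- cells. Pdgfrα+ libraries were high and Pdgfrα- libraries low. Within each of these classes GFP+ and GFP- libraries did not overlap, but their difference was not called. On the log2 scale, GFP+ Pdgfrα+ over GFP- Pdgfrα+ cells gave -0.29 (adjusted p = 0.528, limma), and GFP+ Pdgfrα- over GFP- Pdgfrα- cells 0.49 (adjusted p = 0.0738, limma). The latter was called with the replicate block (adjusted p = 0.0434, limma) and without replicate 1 of the GFP+ Pdgfrα- cells (adjusted p = 0.00172, limma; range 0.00172 to 0.898). The log2 difference between Pdgfrα+ and Pdgfrα- cells was 2.60 (adjusted p = 5.38e-06, limma) among GFP+ cells and 3.38 (adjusted p = 5.48e-08, limma) among GFP- cells.

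*Thbs2* (ENSMUSG00000023885, chr17:14802507-14831269, minus strand) was 841 and 905 in GFP+ Pdgfrα+ cells and 1009 and 1032 in GFP- Pdgfrα+ cells. *Thbs2* was 88.5 and 93.8 in GFP+ Pdgfrα- cells and 17.1 and 27.0 in GFP- Pdgfrα- cells. The order GFP- Pdgfrα+, GFP+ Pdgfrα+, GFP+ Pdgfrα-, GFP- Pdgfrα- held in every library. The first of these neighbours did not differ in limma (log2 fold change -0.23 with a standard error of 0.18, limma adjusted p = 0.556 for GFP+ Pdgfrα+ over GFP- Pdgfrα+). In contrast, GFP+ Pdgfrα+ cells were 9.58-fold above GFP+ Pdgfrα- cells (log2 fold change 3.25 with a standard error of 0.18, limma adjusted p = 3.22e-07), and GFP+ Pdgfrα- cells 4.13-fold above GFP- Pdgfrα- cells (log2 fold change 2.03 with a standard error of 0.18, limma adjusted p = 1.18e-06).

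*Tnc* encodes tenascin C, a large hexameric protein found around condensing bone and cartilage, in tendon and in the muscle and nerve of the embryo, which lowers cell adhesion to fibronectin. *Tnc* (ENSMUSG00000028364, chr4:63620819-63681760, minus strand) was 1145 and 822 in GFP+ Pdgfrα+ cells and 589 and 533 in GFP- Pdgfrα+ cells. *Tnc* was 586 and 624 in GFP+ Pdgfrα- cells and 28.9 and 29.8 in GFP- Pdgfrα- cells. The GFP+ Pdgfrα+ libraries were highest, the GFP- Pdgfrα+ and GFP+ Pdgfrα- libraries overlapped, and the GFP- Pdgfrα- libraries were far below. Against GFP- Pdgfrα+ cells the GFP+ Pdgfrα+ value was 1.75-fold higher (log2 fold change 0.79 with a standard error of 0.15, limma adjusted p = 0.0101). Against GFP+ Pdgfrα- cells it was 1.63-fold higher (log2 fold change 0.68 with a standard error of 0.15, limma adjusted p = 0.00635). The GFP+ Pdgfrα- and GFP- Pdgfrα+ populations did not differ beyond their spread (log2 fold change 0.11 with a standard error of 0.15, limma adjusted p = 0.648). The first call was not made without replicate 1 of GFP+ Pdgfrα+ cells (adjusted p = 0.0848, limma), without replicate 1 (0.0672) or 2 (0.125) of the GFP- Pdgfrα+ cells and without the mean-variance trend (0.126; range 0.00162 to 0.126). The second was lost without replicate 1 of the GFP+ Pdgfrα+ cells (log2 change 0.44, limma adjusted p = 0.0609), without replicate 1 of the GFP+ Pdgfrα- cells (0.069), after quantile normalization (log2 fold change 0.40, adjusted p = 0.0725) and without the trend (0.0766; range 9.01e-04 to 0.0766). The exons of *Tnc* overlap those of 8030451A03Rik on the opposite strand over 176 bases, and those of *Ctgf* overlap Gm15270 over 570 bases. Whether reads were counted by strand is not given in the sources used here, so reads of these pairs could not be separated.

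*Ctgf* and *Cyr61* encode CCN proteins, which bind integrins and heparan sulphate and are widely used as readouts of YAP and TEAD activity. *Ctgf* (ENSMUSG00000019997, chr10:24315248-24318489, plus strand) was 114 and 98.5 in GFP+ Pdgfrα+ cells and 112 and 120.4 in GFP- Pdgfrα+ cells. *Ctgf* was 50.9 and 48.0 in GFP+ Pdgfrα- cells and 7.61 and 9.31 in GFP- Pdgfrα- cells. The Pdgfrα+ populations overlapped and their difference was within the spread (log2 fold change -0.13 with a standard error of 0.18, limma adjusted p = 0.764). Below them, GFP+ Pdgfrα- cells were 2.15-fold lower than GFP+ Pdgfrα+ cells (log2 fold change 1.09 with a standard error of 0.18, limma adjusted p = 8.22e-04 for GFP+ Pdgfrα+ over GFP+ Pdgfrα-) and 5.84-fold higher than GFP- Pdgfrα- cells (log2 fold change 2.42 with a standard error of 0.18, limma adjusted p = 2.64e-07).

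*Cyr61* (ENSMUSG00000028195, chr3:145309935-145312949, minus strand) was 273 and 292 in GFP+ Pdgfrα+ cells and 177 and 135 in GFP- Pdgfrα+ cells. *Cyr61* was 372 and 437 in GFP+ Pdgfrα- cells and 12.8 and 12.9 in GFP- Pdgfrα- cells. No populations overlapped, and the order GFP+ Pdgfrα-, GFP+ Pdgfrα+, GFP- Pdgfrα+, GFP- Pdgfrα- was shared with no other member. Its level in GFP+ Pdgfrα- cells was 2.59-fold that of GFP- Pdgfrα+ cells (log2 fold change 1.38 with a standard error of 0.16, limma adjusted p = 4.77e-05) and 31.6-fold that of GFP- Pdgfrα- cells (log2 fold change 4.87 with a standard error of 0.16, limma adjusted p = 5.41e-10). The steps between neighbours at the top were smaller. On the log2 scale GFP+ Pdgfrα+ over GFP+ Pdgfrα- gave -0.51 (adjusted p = 0.0328, limma), and GFP+ Pdgfrα+ over GFP- Pdgfrα+ gave 0.86 (adjusted p = 0.00724, limma). The step from GFP+ Pdgfrα- to GFP+ Pdgfrα+ cells was not called without any 1 of the 4 libraries compared (adjusted p = 0.138 and 0.0874 without replicate 1 and 2 of GFP+ Pdgfrα+ cells, 0.066 and 0.219 without those of GFP+ Pdgfrα- cells, limma) or without the mean-variance trend (0.148; range 0.00872 to 0.219). The step from GFP- Pdgfrα+ to GFP+ Pdgfrα+ cells was lost without replicate 1 (0.0508) or 2 (0.0613) of GFP+ Pdgfrα+ cells, without replicate 2 of GFP- Pdgfrα+ cells (0.107) and without the trend (0.0891; adjusted p range 0.00161 to 0.107, limma). Pdgfrα+ cells were higher than Pdgfrα- cells among GFP- cells (log2 change 3.49, limma adjusted p = 2.77e-09) and lower among GFP+ cells, and the test of that difference gave -4.01 (adjusted p = 8.76e-08, limma).

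*Spon2* encodes the spondin mindin, which binds integrins and bacterial surfaces. *Spon2* (ENSMUSG00000037379, chr5:33556167-33560887, minus strand) was 16.2 and 12.5 in GFP+ Pdgfrα+ cells and 61.1 and 59.3 in GFP- Pdgfrα+ cells. *Spon2* was 0.364 and 1.41 in GFP+ Pdgfrα- cells and 8.76 and 9.08 in GFP- Pdgfrα- cells. It was the only member with lower values in both GFP+ Pdgfrα- libraries than in both GFP- Pdgfrα- libraries. The GFP- Pdgfrα+ libraries were 4.20-fold above the GFP+ Pdgfrα+ libraries (log2 fold change -2.01 with a standard error of 0.34, limma adjusted p = 0.00505 for GFP+ Pdgfrα+ over GFP- Pdgfrα+). This call was lost without replicate 1 (0.072) or 2 (0.0713) of the GFP- Pdgfrα+ cells and when 0.1 was added in place of 1 (limma adjusted p = 0.0522, range 2.02e-04 to 0.072). GFP+ Pdgfrα+ and GFP- Pdgfrα- cells, neighbours in the order, did not differ in the test (log2 fold change 0.62 with a standard error of 0.34, limma adjusted p = 0.138), although their libraries did not overlap. The GFP+ Pdgfrα- libraries held 1 and 5 reads, and the ratio of summed reads of GFP- Pdgfrα- to GFP+ Pdgfrα- cells was 11.7 (exact 95% interval 5.13 to 33.1). The fit gave a log2 fold change -2.45 with a standard error of 0.34, limma adjusted p = 6.52e-05 for GFP+ Pdgfrα- over GFP- Pdgfrα- cells, and voom on the recovered reads -3.71 (adjusted p range 8.53e-06 to 0.00306).

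Between the Pdgfrα+ populations, *Sparc*, *Tnc* and *Cyr61* were higher and *Postn*, *Tgfbi* and *Spon2* lower in GFP+ cells. Thus 3 of the 10 members were called higher, against 3.22% of all genes, and 3 lower, against 2.13%. The median log2 fold change of the members was -0.18, beside 0.00 over all genes. *Thbs1*, *Thbs2*, *Smoc2* and *Ctgf* were not called. The count of 6 fell to 3 without replicate 1 of the GFP+ Pdgfrα+ or of the GFP- Pdgfrα+ cells, to 2 without replicate 2 of GFP- Pdgfrα+ cells and to 3 with no mean-variance trend, and *Postn* and *Tgfbi* were called in all 18 alternatives. Over all genes the count of 849 fell to 350 and 517 without replicate 1 and 2 of the GFP+ Pdgfrα+ cells, to 306 and 246 without those of the GFP- Pdgfrα+ cells and to 532 with no trend.

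Among GFP+ cells, all members but *Cyr61* were higher in the Pdgfrα+ fraction: 9 were called higher, against 13.1% of all genes, and 1 lower, against 11.1%. The median was 2.55 for the members and -0.02 over all genes. Fold changes called higher ran from 0.68 for *Tnc* to 5.97 for *Smoc2* on the log2 scale.

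Among GFP- cells, each of the 10 members was called higher in the Pdgfrα+ fraction, against 32.9% of all genes, and 0 were lower, against 26.8% (adjusted p at most 2.86e-05, limma). Their values ran from 2.63 for *Spon2* to 6.05 for *Postn*, with a median of 4.23 beside 0.17 over all genes.

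Within Pdgfrα- cells, GFP+ cells were higher for 6 members, against 30.1% of all genes, and lower for 1, *Spon2*, against 23.6%. The median was 2.13 beside 0.15 over all genes. *Cyr61*, *Tnc* and *Sparc* had the highest fold changes, and *Tgfbi*, *Thbs1* and *Smoc2* were not called. When the GFP+ Pdgfrα- were set against the GFP- Pdgfrα+ cells, 1 member (*Cyr61*) was higher and 8 were lower, against 13.5% and 14.3% of all genes, with medians of -3.18 and 0.03, and *Tnc* was not called. The GFP+ Pdgfrα+ cells were above the GFP- Pdgfrα- cells for 9 members, against 32.9% of all genes, and below them for 0, against 26.4%, with *Spon2* not called and medians of 4.56 and 0.20.

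The interaction compares the difference between GFP+ and GFP- cells in the Pdgfrα+ class with that in the Pdgfrα- class. It was called below 0 for 7 members, against 25.2% of all genes, and above 0 for 0, against 19.1%, with a median of -2.36 beside -0.16 over all genes. *Thbs1* missed the threshold (log2 change -0.78, limma adjusted p = 0.0547) and was called with the replicate block (adjusted p = 0.0306), without replicate 1 of GFP+ Pdgfrα- cells (0.00209) and in edgeR on the recovered reads (0.0477; range 0.00209 to 0.353). *Smoc2* (log2 change 0.37, limma adjusted p = 0.476) was called above 0 after quantile normalization (1.06, adjusted p = 0.049; range 0.049 to 0.799). The comparisons with GFP- Pdgfrα- cells moved with the scaling of the libraries. Centring each library on its median moved the median over all genes from 0.15 to -0.30 for GFP+ Pdgfrα-, from 0.17 to -0.28 for GFP- Pdgfrα+ and from 0.20 to -0.28 for GFP+ Pdgfrα+ over GFP- Pdgfrα- cells, and from -0.16 to 0.27 for the interaction. The share of called genes that were higher went from 56.1% to 38.9%, from 55.1% to 40.6%, from 55.5% to 39.6% and from 43.1% to 59.7% in the same order. With quantile normalization these shares were 46.7%, 45.5%, 44.2% and 50.01%, and the medians -0.14, -0.15, -0.16 and 0.10. *Sparc* in GFP+ Pdgfrα- over GFP- Pdgfrα+ cells, with its value of 0 after quantile normalization, was the only called difference of a member that lost its direction under either scaling. Quantile normalization sets a value by its rank within the library, and this *Sparc* difference was called in 17 of the 18 alternatives.

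**Figure D2:**
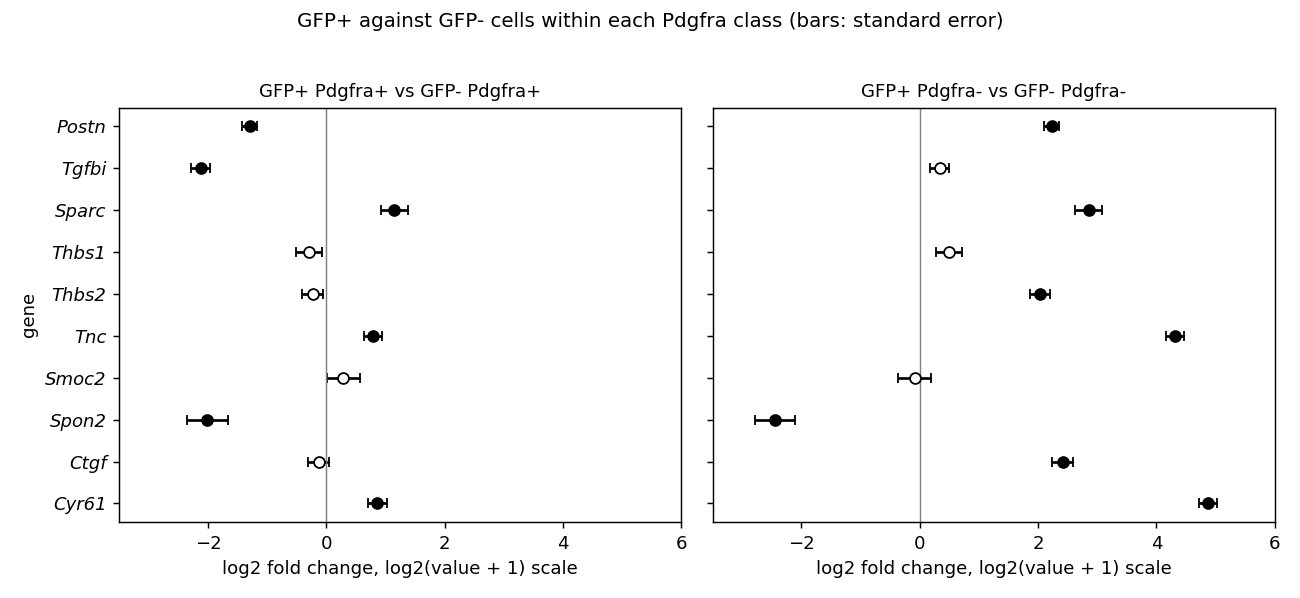
GFP+ over GFP- cells, as log2 fold change of each of the 10 genes, among Pdgfrα+ cells (left) and Pdgfrα- cells (right), with bars for the standard error and filled points for calls at an adjusted p of at most 0.05 in limma. *Postn* lies at -1.29 on the left and 2.23 on the right.

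Of 18 other genes of these families, 17 were in the table, and *Tnr* was not analysed here. Their counts and medians can be read against the shares and medians of all genes given for the same comparisons. Among Pdgfrα+ cells 2 were called higher (*Spp1* and *Spock1*) and 6 lower in GFP+ cells (median -0.43). The *Spock1* call (log2 change 1.58, limma adjusted p = 0.0298) was lost without replicate 1 (0.127) of GFP+ Pdgfrα+ cells, without replicate 1 (0.151) or 2 (0.143) of GFP- Pdgfrα+ cells, without replicate 1 (0.0516) or 2 (0.0504) of GFP+ Pdgfrα- cells, with only the compared populations fitted (0.0809), with quantile normalization (0.0536) and in edgeR (0.101; adjusted p range 0.0197 to 0.151). Among GFP+ cells 13 were higher and 1 lower in the Pdgfrα+ fraction (median 2.39). The lower gene was *Wisp3*, with 0 reads in both GFP+ Pdgfrα+ libraries and 5 in each GFP+ Pdgfrα- library. In GFP- cells 15 were higher and 0 lower in the Pdgfrα+ fraction (median 3.83), and in Pdgfrα- cells 11 were higher and 2 lower in the GFP+ fraction (median 1.08). The latter became 8 and 3 (median 0.63) with median centring and 8 and 3 (median 0.68) with quantile normalization. The GFP+ Pdgfrα- cells differed from GFP- Pdgfrα+ cells by 2 higher (*Spp1* and *Spon1*) and 11 lower genes (median -2.75). The GFP+ Pdgfrα+ differed from the GFP- Pdgfrα- cells by 14 higher and 1 lower gene, *Comp* (median 3.98). The interaction was called above 0 for 2 (*Spp1* and *Spock1*) and below 0 for 10 (median -1.78).

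The other thrombospondins are pentamers found in tendon and cartilage. *Thbs4* was 473 and 509 in GFP+ Pdgfrα+ cells and 2265 and 2229 in GFP- Pdgfrα+ cells. *Thbs4* was 7.41 and 6.30 in GFP+ Pdgfrα- cells and 46.7 and 53.4 in GFP- Pdgfrα- cells. Like *Spon2*, it was lower in GFP+ Pdgfrα- cells than in the GFP- Pdgfrα- cells (log2 change -2.70, limma adjusted p = 1.37e-08), as was *Comp* (log2 change -3.71, limma adjusted p = 1.04e-06). *Comp* had only 1 and 4 reads in the GFP+ Pdgfrα- libraries, against 70 and 96 in the GFP- Pdgfrα- libraries. *Thbs4* (log2 change -2.19, limma adjusted p = 4.68e-06), *Comp* (log2 change -3.14, limma adjusted p = 1.81e-04) and *Thbs3* (log2 change -1.01, limma adjusted p = 0.00365) were all lower in GFP+ than in GFP- cells of the Pdgfrα+ class. For *Thbs3* this call was lost without replicate 1 (0.0659) or 2 (0.0541; adjusted p range 7.10e-05 to 0.0659) of GFP- Pdgfrα+ cells.

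*Spp1*, which encodes the bone matrix protein osteopontin, was 6048 and 3915 in GFP+ Pdgfrα+ cells and 287 and 174 in GFP- Pdgfrα+ cells. *Spp1* was 494 and 393 in GFP+ Pdgfrα- cells and 85.4 and 77.5 in GFP- Pdgfrα- cells. Its GFP+ Pdgfrα+ libraries were far above the other 6 (log2 change 4.44, limma adjusted p = 1.34e-06 over GFP- Pdgfrα+ cells). Among the other CCN genes, *Nov* was 89.1 and 95.3 in GFP+ Pdgfrα+ cells and 353 and 311 in GFP- Pdgfrα+ cells. *Nov* was 14.2 and 16.3 in GFP+ Pdgfrα- cells and 2.15 and 1.53 in GFP- Pdgfrα- cells. These values had the order of *Postn*, with GFP+ below GFP- cells in the Pdgfrα+ class (log2 change -1.83, limma adjusted p = 2.76e-04). The difference of *Wisp1* between the Pdgfrα+ populations was not called (log2 change 0.40, limma adjusted p = 0.318), and *Wisp2* and *Wisp3* were below a value of 3 in every library.

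*Tnxb*, which encodes the tenascin of loose connective tissue, was 822 and 822 in GFP+ Pdgfrα+ cells and 1310.2 and 1295 in GFP- Pdgfrα+ cells. *Tnxb* was 48.2 and 47.2 in GFP+ Pdgfrα- cells and 2.73 and 2.00 in GFP- Pdgfrα- cells. Between the Pdgfrα+ populations it was lower in GFP+ cells (log2 change -0.66, limma adjusted p = 0.0187), which was not called without replicate 1 (0.104) or 2 (0.0969) of GFP+ Pdgfrα+ cells, without replicate 1 (0.158) or 2 (0.147) of GFP- Pdgfrα+ cells, without the trend (0.141) and with quantile normalization (0.0925; adjusted p range 9.32e-05 to 0.158). Unlike *Tnc*, it was lower with GFP alone than with Pdgfrα alone (log2 change -4.74, limma adjusted p = 4.40e-09). *Fstl1*, the most abundant of the other SPARC family genes, was 2434 and 2451 in GFP+ Pdgfrα+ cells and 3534 and 3036 in GFP- Pdgfrα+ cells. *Fstl1* was 418 and 444 in GFP+ Pdgfrα- cells and 37.5 and 57.7 in GFP- Pdgfrα- cells. The difference between its Pdgfrα+ populations was not called (log2 change -0.42, limma adjusted p = 0.202), but it was without replicate 1 (0.0368) or 2 (0.0362) of GFP- Pdgfrα- cells, in voom (0.00806) and in a fit, added after seeing the data, with no GFP- Pdgfrα- library (0.0394; adjusted p range 0.00806 to 0.591). *Spock2* was lower in the GFP+ cells of that class (log2 change -0.86, limma adjusted p = 0.0206), a call lost without replicate 1 (0.141) or 2 (0.0649) of GFP+ Pdgfrα+ cells, without replicate 1 (0.064) or 2 (0.242) of GFP- Pdgfrα+ cells and without the trend (0.088; adjusted p range 0.0021 to 0.242). *Spon1*, the relative of *Spon2*, was 44.6 and 56.5 in GFP+ Pdgfrα+ cells and 28.1 and 17.7 in GFP- Pdgfrα+ cells. *Spon1* was 51.6 and 66.5 in GFP+ Pdgfrα- cells and 0.431 and 1.06 in GFP- Pdgfrα- cells. It was high where *Spon2* was lowest (log2 change 5.12, limma adjusted p = 5.03e-08 for GFP+ Pdgfrα- over GFP- Pdgfrα- cells). The GFP- Pdgfrα- libraries held only 1 and 4 *Spon1* reads.

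**Figure D3:**
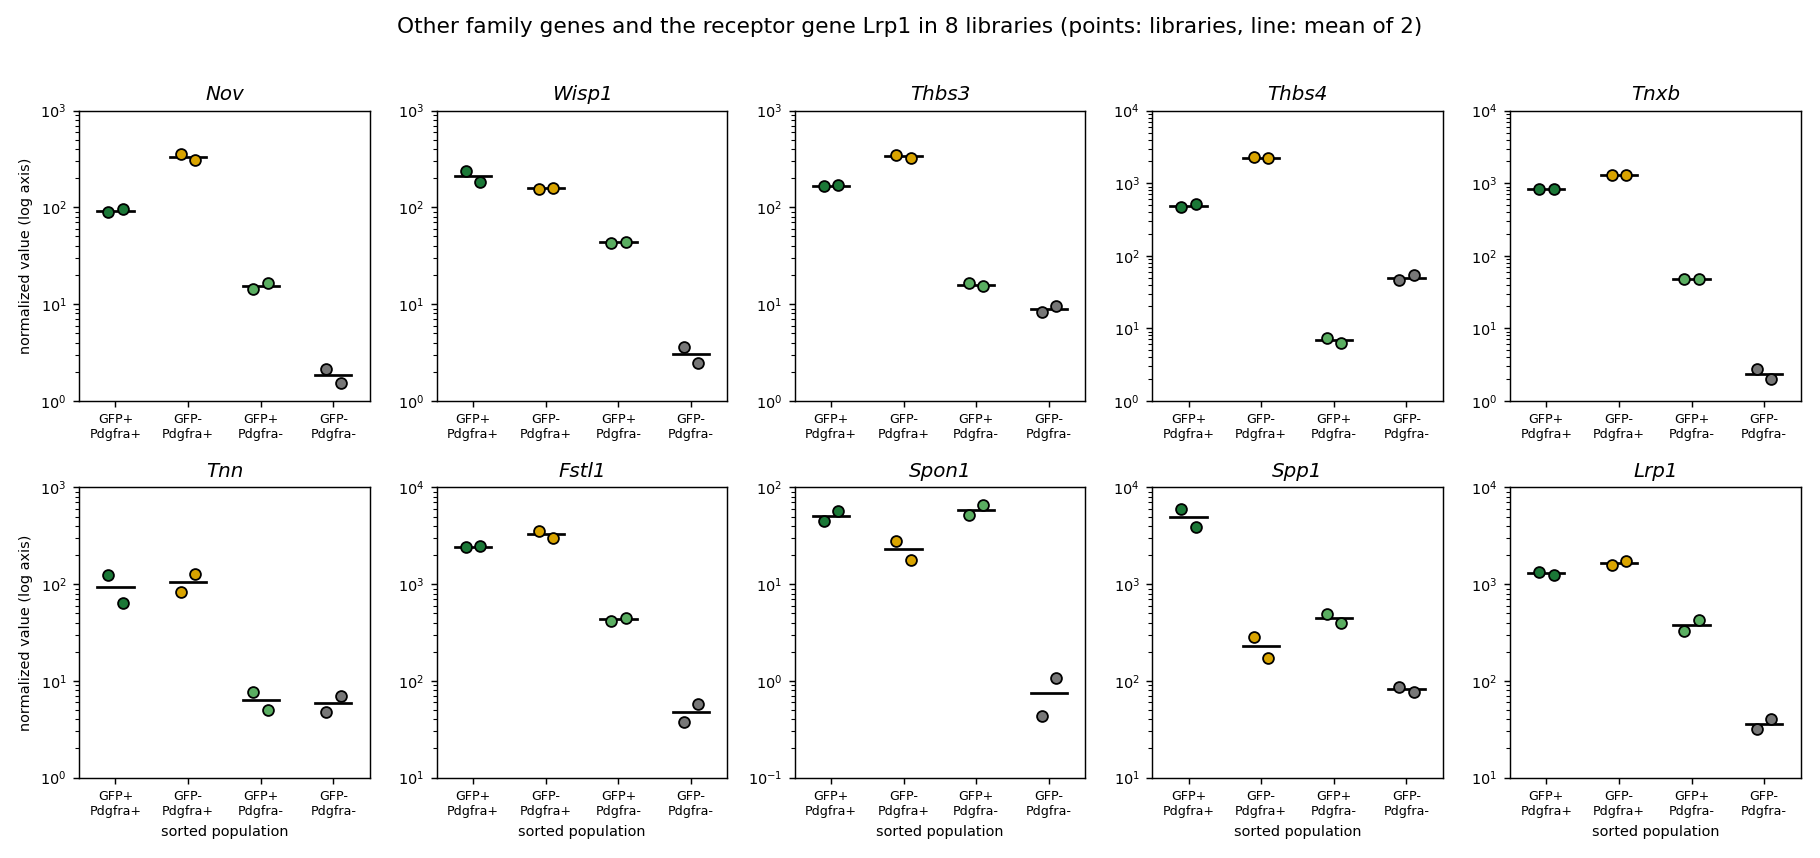
Normalized value of 9 other genes of the matricellular families and of the receptor gene *Lrp1* in the 4 sorted populations, on log axes that differ between panels. Points are libraries and lines means of 2, and the *Spp1* points of GFP+ Pdgfrα+ cells, 6048 and 3915, lie above all others of that gene.

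Receptors of these proteins include the integrins of the αv, α5, α8 and α9 classes, the scavenger receptor CD36, CD47, the endocytic receptor LRP1 and syndecan 4. Of 12 such genes, 0 were higher and 1 lower in GFP+ Pdgfrα+ over GFP- Pdgfrα+ cells (median -0.24), and 6 were higher and 3 lower in GFP+ Pdgfrα+ over GFP+ Pdgfrα- cells (median 0.87). Over GFP- Pdgfrα- cells 9 were higher and 2 lower in GFP+ Pdgfrα- cells (median 2.80) and 10 and 2 in GFP- Pdgfrα+ cells (median 3.05). With GFP+ Pdgfrα- set over GFP- Pdgfrα+ cells the counts were 3 and 7 (median -0.91). *Lrp1*, the most abundant, was 1330.0 and 1248 in GFP+ Pdgfrα+ cells and 1595 and 1730.5 in GFP- Pdgfrα+ cells. *Lrp1* was 331 and 422 in GFP+ Pdgfrα- cells and 32.0 and 40.2 in GFP- Pdgfrα- cells. Its Pdgfrα+ libraries were above all others. *Cd47*, a receptor of thrombospondins with 2 identifiers in the table, was highest in GFP- Pdgfrα- cells (593 and 527) and lowest in GFP+ Pdgfrα- cells (log2 change -2.23, limma adjusted p = 7.52e-08 for GFP+ Pdgfrα- over GFP- Pdgfrα-). *Itgb1* lay between 282 and 527 in the 8 libraries, and *Itga5* was the 1 receptor gene called between the Pdgfrα+ populations (log2 change -0.96, limma adjusted p = 0.0228 for GFP+ over GFP-). It was no longer called without replicate 1 (0.166) or 2 (0.056) of GFP+ Pdgfrα+ cells, without replicate 1 (0.17) or 2 (0.146) of GFP- Pdgfrα+ cells and without the trend (0.14; adjusted p range 0.00158 to 0.17).

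Periostin, osteonectin and the thrombospondins bind collagens, fibronectin and the enzymes that process them. For 8 genes of this list, 3 were higher and 2 lower in GFP+ Pdgfrα+ over GFP- Pdgfrα+ cells (median 0.12), and 8 were higher and 0 lower in GFP+ Pdgfrα+ over GFP+ Pdgfrα- cells (median 2.67). Over GFP- Pdgfrα- cells 8 were higher and 0 lower in GFP+ Pdgfrα- cells (median 2.57) and 8 and 0 in GFP- Pdgfrα+ cells (median 5.04). With GFP+ Pdgfrα- set over GFP- Pdgfrα+ cells the counts were 0 and 7 (median -2.49). *Col1a1* was 51184 and 38311 in GFP+ Pdgfrα+ cells and 16841 and 15352 in GFP- Pdgfrα+ cells. *Col1a1* was 3099 and 2562 in GFP+ Pdgfrα- cells and 435 and 560.2 in GFP- Pdgfrα- cells. Like *Sparc*, *Col1a1* (log2 change 1.46, limma adjusted p = 5.69e-04) and *Col1a2* (log2 change 1.35, limma adjusted p = 6.45e-04) were higher in the GFP+ cells of the Pdgfrα+ class. *Col3a1* (log2 change -0.56, limma adjusted p = 0.0184) and *Col6a1* (log2 change -0.69, limma adjusted p = 0.00735) were lower there, *Bmp1* was the third gene called higher (log2 change 0.90, limma adjusted p = 0.0315), and *Fn1* was not called (log2 change -0.29, limma adjusted p = 0.385). Quantile normalization made the first counts 3 and 0 (median 0.30). After it *Col3a1* turned to 0.04 (adjusted p = 0.904, limma), and its call was also lost without replicate 1 (0.0794) or 2 (0.0969) of GFP+ Pdgfrα+ cells, without replicate 1 (0.159) or 2 (0.114) of GFP- Pdgfrα+ cells, with only the compared populations fitted (0.0508) and without the trend (0.194; adjusted p range 4.16e-05 to 0.904). That of *Col6a1* was lost without replicate 1 (0.0623) of GFP+ Pdgfrα+ cells, without replicate 1 (0.0666) or 2 (0.1) of GFP- Pdgfrα+ cells, without the trend (0.133) and with quantile normalization (0.085; adjusted p range 1.20e-04 to 0.133), and that of *Bmp1* without replicate 1 (0.23) of GFP+ Pdgfrα+ cells, without replicate 1 (0.246) or 2 (0.126) of GFP- Pdgfrα+ cells, without the trend (0.151) and with a pseudocount of 0.1 (0.0541; adjusted p range 0.00742 to 0.246).

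TGF-beta induces several of the members in other cell types. Of 9 ligands, receptors and targets, 6 were called higher and 1 lower in GFP+ Pdgfrα+ over GFP+ Pdgfrα- cells (median 0.71). Over GFP- Pdgfrα- cells 6 were higher and 1 lower in GFP+ Pdgfrα- cells (median 1.76) and 8 and 1 in GFP- Pdgfrα+ cells (median 2.19). With GFP+ Pdgfrα- set over GFP- Pdgfrα+ cells the counts were 0 and 5 (median -0.77). For GFP+ Pdgfrα- over GFP- Pdgfrα- cells median centring gave counts of 5 and 3 and quantile normalization 5 and 2, and for GFP- Pdgfrα+ over GFP- Pdgfrα- cells they gave 6 and 1 and 7 and 1. Between the Pdgfrα+ populations, *Tgfb1* was called higher (log2 change 1.80, limma adjusted p = 0.00482) and *Tgfb2* (log2 change -0.97, limma adjusted p = 0.0276) and *Tgfbr2* (log2 change -0.77, limma adjusted p = 0.0137) lower in GFP+ cells, whereas *Tgfbr3* (log2 change -0.19, limma adjusted p = 0.539) and *Skil* (log2 change 0.19, limma adjusted p = 0.529) were not called. The *Tgfb1* call was lost without replicate 1 (0.0571) of GFP+ Pdgfrα+ cells and without replicate 1 (0.0511) or 2 (0.061; adjusted p range 0.0014 to 0.061) of GFP- Pdgfrα+ cells. For *Tgfb2* it was lost without replicate 1 (0.179) or 2 (0.0577) of GFP+ Pdgfrα+ cells, without replicate 1 (0.166) or 2 (0.179) of GFP- Pdgfrα+ cells, without replicate 1 (0.0704) or 2 (0.071) of GFP+ Pdgfrα- cells, without the trend (0.128) and with a pseudocount of 0.1 (0.0597; adjusted p range 0.00196 to 0.179), and for *Tgfbr2* without replicate 1 (0.0593) or 2 (0.0953) of GFP+ Pdgfrα+ cells, without replicate 1 (0.145) or 2 (0.0943) of GFP- Pdgfrα+ cells and without the trend (0.106; adjusted p range 0.00112 to 0.145).

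Of 17 genes of the YAP and TEAD pathway, with *Ajuba* not analysed here, 0 were higher and 2 lower in GFP+ Pdgfrα+ over GFP- Pdgfrα+ cells (median -0.10), and 4 were higher and 3 lower in GFP+ Pdgfrα+ over GFP+ Pdgfrα- cells (median 0.07). The 2 lower genes were *Myof* (log2 change -1.26, limma adjusted p = 0.007) and *Axl* (log2 change -0.69, limma adjusted p = 0.0441). These first counts became 0 and 3 with median centring and 0 and 1 with quantile normalization. Over GFP- Pdgfrα- cells 14 were higher and 1 lower in GFP+ Pdgfrα- cells (median 3.65) and 14 and 1 in GFP- Pdgfrα+ cells (median 3.37). With GFP+ Pdgfrα- set over GFP- Pdgfrα+ cells the counts were 3 and 4 (median -0.21), or 3 and 5 (median -0.10) with quantile normalization. *Tead1*, a DNA-binding partner of YAP, was 197 and 218 in GFP+ Pdgfrα+ cells and 229 and 216 in GFP- Pdgfrα+ cells. *Tead1* was 477 and 482 in GFP+ Pdgfrα- cells and 18.0 and 18.0 in GFP- Pdgfrα- cells. It was highest in the GFP+ Pdgfrα- libraries, as *Cyr61* was (log2 change 1.11, limma adjusted p = 5.12e-05 over GFP- Pdgfrα+ cells). *Axl* was lower there (log2 change -2.43, limma adjusted p = 1.14e-06), and *Wwtr1*, which encodes TAZ, was not called (log2 change -0.21, limma adjusted p = 0.445).

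Immediate-early genes, which are transcribed within minutes of stimulation and during tissue dissociation, include regulators of *Cyr61* and *Ctgf*. Of 13 such genes, 7 were higher and 0 lower in GFP+ Pdgfrα+ over GFP- Pdgfrα+ cells (median 1.17), and 2 were higher and 6 lower in GFP+ Pdgfrα+ over GFP+ Pdgfrα- cells (median -0.94). Over GFP- Pdgfrα- cells 12 were higher and 0 lower in GFP+ Pdgfrα- cells (median 2.24) and 8 and 2 in GFP- Pdgfrα+ cells (median 0.98). With GFP+ Pdgfrα- set over GFP- Pdgfrα+ cells the counts were 11 and 0 (median 2.03). The counts of GFP- Pdgfrα+ over GFP- Pdgfrα- cells became 6 and 4 (median 0.52) with median centring and 7 and 3 (median 0.68) with quantile normalization, which also gave 2 and 9 (median -1.07) for GFP+ Pdgfrα+ over GFP+ Pdgfrα- cells. *Egr1*, the most abundant, was 930.3 and 831 in GFP+ Pdgfrα+ cells and 809 and 478 in GFP- Pdgfrα+ cells. *Egr1* was 3295 and 3811 in GFP+ Pdgfrα- cells and 177 and 249 in GFP- Pdgfrα- cells. The summed level of the 13 genes was 2611 and 2069 in GFP+ Pdgfrα+ cells and 1577 and 1090.1 in GFP- Pdgfrα+ cells. The sum was 5575 and 6611 in GFP+ Pdgfrα- cells and 667 and 845 in GFP- Pdgfrα- cells. It was highest in the GFP+ Pdgfrα- libraries, where *Cyr61* was highest too, and its part in the *Cyr61* values was not tested. *Jun* (log2 change 1.63, limma adjusted p = 5.48e-06) and *Fos* (log2 change 2.46, limma adjusted p = 1.57e-06) were higher there than with Pdgfrα alone.

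Markers of other cell types moved with the populations, and their part in the differences of the members was not tested. The 6 osteoblast markers were all called higher in GFP+ Pdgfrα+ over GFP- Pdgfrα+ cells, and 6 of 6 also over GFP+ Pdgfrα- cells. Their summed level was 4004 and 2776 in GFP+ Pdgfrα+ cells and 144 and 110.5 in GFP- Pdgfrα+ cells. The osteoblast sum was 301 and 273 in GFP+ Pdgfrα- cells and 25.6 and 29.7 in GFP- Pdgfrα- cells. *Ibsp* was the most abundant, and *Bglap* had 0 reads in both GFP- Pdgfrα- libraries. The GFP+ Pdgfrα+ libraries, with the highest osteoblast sum, also had the highest *Sparc*, *Tnc* and *Spp1*.

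All 5 tendon markers were lower in GFP+ Pdgfrα+ over GFP- Pdgfrα+ cells, and 5 of 5 were higher in GFP- Pdgfrα+ over GFP- Pdgfrα- cells. Their sum was 182 and 156 in GFP+ Pdgfrα+ cells and 1589 and 1677 in GFP- Pdgfrα+ cells. The tendon sum was 18.6 and 19.9 in GFP+ Pdgfrα- cells and 56.2 and 88.3 in GFP- Pdgfrα- cells. *Fmod* was the most abundant and none was at 0 reads in a whole population. The highest *Postn*, *Tgfbi*, *Spon2* and *Thbs4* values were in the same GFP- Pdgfrα+ libraries. Of 7 chondrocyte markers 4 were lower in GFP+ Pdgfrα+ over GFP- Pdgfrα+ cells and 7 lower in GFP+ Pdgfrα- over GFP- Pdgfrα- cells. Their sum was 264 and 384 in GFP+ Pdgfrα+ cells and 572 and 2041 in GFP- Pdgfrα+ cells. The chondrocyte sum was 39.5 and 69.8 in GFP+ Pdgfrα- cells and 549.6 and 976 in GFP- Pdgfrα- cells. *Col2a1* was the most abundant and differed several-fold between the GFP- Pdgfrα+ libraries, and *Matn1* was at 0 reads in GFP+ Pdgfrα+ and GFP+ Pdgfrα- cells.

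In GFP+ Pdgfrα- cells, the summed levels of markers of 3 lineages were highest, as *Cyr61* was. Of 7 skeletal muscle markers 7 were higher than in GFP- Pdgfrα- cells and 6 higher than in GFP- Pdgfrα+ cells. Their sum was 151 and 128 in GFP+ Pdgfrα+ cells and 35.7 and 43.8 in GFP- Pdgfrα+ cells. The muscle sum was 1592 and 1509 in GFP+ Pdgfrα- cells and 56.2 and 39.7 in GFP- Pdgfrα- cells, with *Ttn* the most abundant. Of 6 smooth muscle and pericyte markers 6 were higher than in GFP- Pdgfrα- cells. Against GFP- Pdgfrα+ cells 5 were higher and 1, *Cspg4*, was lower (log2 change -1.05, limma adjusted p = 0.0349), a call lost without replicate 1 (0.142) or 2 (0.155) of GFP- Pdgfrα+ cells, without replicate 1 (0.263) or 2 (0.0738) of GFP+ Pdgfrα- cells, without the trend (0.128) and with a pseudocount of 0.1 (0.0577; adjusted p range 8.23e-04 to 0.263). Their sum was 397 and 305 in GFP+ Pdgfrα+ cells and 320.5 and 342 in GFP- Pdgfrα+ cells. The pericyte sum was 1769 and 2307 in GFP+ Pdgfrα- cells and 74.7 and 115 in GFP- Pdgfrα- cells, with *Rgs5* the most abundant. The 6 Schwann cell markers gave a sum of 101 and 66.4 in GFP+ Pdgfrα+ cells and 19.7 and 38.6 in GFP- Pdgfrα+ cells. The Schwann cell sum was 411 and 383 in GFP+ Pdgfrα- cells and 23.3 and 39.4 in GFP- Pdgfrα- cells. Of the 6, 5 were higher in GFP+ Pdgfrα- over GFP- Pdgfrα- cells. Over GFP- Pdgfrα+ cells 5 were higher and 1, *S100b*, was lower (log2 change -1.39, limma adjusted p = 0.0368), which was not called without replicate 2 (0.294) of GFP- Pdgfrα+ cells, without replicate 1 (0.0574) or 2 (0.234) of GFP+ Pdgfrα- cells and with a pseudocount of 0.1 (0.062; adjusted p range 0.0216 to 0.294). Of the Schwann cell markers *Erbb3* was the most abundant, and *Foxd3* was at 0 reads in GFP- Pdgfrα- cells.

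The 4 erythroid markers were highest in GFP- Pdgfrα- cells, called against each other population, and their sum there was 6661 and 12032, against 23.5 to 81.3 in the other 6 libraries, with *Hbb-b1* the most abundant. Ter119 had been used to remove such cells. Of leukocyte, endothelial and megakaryocyte markers, *Cd52*, *Pf4* and *Ppbp* were not analysed here. The 4 leukocyte markers summed to at most 47.1, the 5 endothelial markers to at most 113 and the 3 megakaryocyte and platelet markers to at most 10.7 in a library. *Lyz2*, *Tek* and *Itga2b* were the most abundant, *Ptprc* was at 0 reads in GFP- Pdgfrα+ cells, *Gp9* in GFP+ Pdgfrα+ cells and *Gp1bb* in GFP- Pdgfrα- cells. In the same order 3 of 4, 3 of 5 and 2 of 3 were called for GFP- Pdgfrα+ over GFP- Pdgfrα- cells. Of these, 0, 1 and 1 were higher and 3, 2 and 1 lower, beside 32.9% higher and 26.8% lower over all genes. For GFP+ Pdgfrα+ over GFP- Pdgfrα+ cells 1 of 4 (lower), 0 of 5 and 0 of 3 were called, beside 3.22% higher and 2.13% lower over all genes. The 5 fibroblast markers summed to 10624 and 10344 in GFP+ Pdgfrα+ cells and 14509.8 and 13539 in GFP- Pdgfrα+ cells. The fibroblast sum was 1509.9 and 1318 in GFP+ Pdgfrα- cells and 156 and 142 in GFP- Pdgfrα- cells. They include *Pdgfra* itself, and *Col3a1* was the most abundant. All 5 were higher in the Pdgfrα+ fraction of GFP+ and of GFP- cells, as the members other than *Cyr61* were.

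For each member, the 3 genes with the most similar pattern were taken as those with the highest Pearson correlation of log2(value + 1) over the 8 libraries, among genes with a mean value of at least 10. The 8 points fall into 4 populations and are not independent, so the values are given as a description. For *Postn* they were *Pamr1* (0.998), *Abi3bp* (0.998) and *Sulf2* (0.997). Those of *Tgfbi* were *P4ha3* (0.996), *Shisa5* (0.992) and *Rcan1* (0.989), and those of *Sparc* *Fkbp10* (0.998), *Sec24d* (0.997) and *Fap* (0.995). *Thbs1* was closest to *Nedd9* (0.999), *Ctsa* (0.998) and *Aldh1a2* (0.997), and *Thbs2* to *Bgn* (0.999), *Itga9* (0.999) and *Zfp423* (0.998), which include a proteoglycan gene and an integrin gene. The genes nearest to *Tnc* were *Ptprd* (0.999), *Apc* (0.996) and *Flna* (0.996), and those nearest to *Smoc2* *4833403I15Rik* (0.997), *Mfap5* (0.995) and *Dcn* (0.994). For *Spon2* came *Zfp110* (0.994), *Cast* (0.986) and *Mdga1* (0.976), and for *Ctgf* *Mcc* (0.999), *Prrx1* (0.999) and *Zfp618* (0.998). *Cyr61* was closest to *Spon1* (0.995), *Soat1* (0.995) and *Itga6* (0.994), the first of which is the spondin gene described with the families. Over the same 8 libraries, *Postn* and *Thbs2* correlated at 0.985 and *Tnc* and *Cyr61* at 0.962, while *Spon2* and *Cyr61* were at -0.183.

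RefSeq promoter windows (GRCm38.p6, a later build than that of the values) matched 6 of the 10 members, with 8 windows, and *Thbs1*, *Smoc2*, *Spon2* and *Ctgf* had none. The 250 bases before the start were searched on both strands for GGAATG (the TEAD motif), the CArG box of SRF, TATAAA and TGANTCA (the AP-1 motif), which were present in 12.6%, 1.47%, 12.4% and 6.75% of 32851 windows of this length. The 50 bases that follow the start were found in an annotated GENCODE M1 transcript for *Tgfbi*, *Sparc*, *Thbs2* and *Cyr61*, and for neither window of *Postn* or *Tnc*. TATAAA was found in the windows of *Thbs2* and *Cyr61*, in *Tnc* (the same site in both of its windows, which overlap) and in 1 window of *Postn*, GGAATG in that of *Cyr61*, and no CArG box or TGANTCA in any of the 8. The 3 members whose highest values were in different populations are shown, *Postn* (chr3:54360857-54361106, plus strand), *Sparc* (chr11:55420081-55420330, minus strand) and *Cyr61* (chr3:145649986-145650235, minus strand), 5′ to 3′ with motif matches in capitals. A match describes letters in this window only.
Postn: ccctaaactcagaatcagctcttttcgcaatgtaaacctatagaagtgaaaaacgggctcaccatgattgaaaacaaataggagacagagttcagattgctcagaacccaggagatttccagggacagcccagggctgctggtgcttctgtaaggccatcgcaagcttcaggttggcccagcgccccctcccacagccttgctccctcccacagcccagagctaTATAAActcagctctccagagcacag
Sparc: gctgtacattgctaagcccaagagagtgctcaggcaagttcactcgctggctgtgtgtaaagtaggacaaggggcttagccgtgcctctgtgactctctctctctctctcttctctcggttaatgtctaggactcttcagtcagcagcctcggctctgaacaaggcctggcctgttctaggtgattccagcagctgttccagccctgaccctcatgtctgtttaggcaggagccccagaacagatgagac
Cyr61: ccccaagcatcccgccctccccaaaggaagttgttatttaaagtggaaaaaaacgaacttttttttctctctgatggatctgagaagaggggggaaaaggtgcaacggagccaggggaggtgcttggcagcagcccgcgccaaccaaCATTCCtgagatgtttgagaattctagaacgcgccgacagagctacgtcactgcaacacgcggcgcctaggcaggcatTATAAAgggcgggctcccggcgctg
In the *Cyr61* window TATAAA began 25 bases before the start and CATTCC, which is GGAATG on the other strand, 103 bases before it. In the *Postn* window TATAAA began 26 bases before the start, and the *Sparc* window held none of the motifs.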

How the data were processed

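RNA of sorted stromal cells was purified with the Picopure kit and amplified with the Ovation RNA-Seq V2 system, and libraries were made with a TruSeq DNA kit. The deposited signal values are normalized expression per gene and library, which the authors made with cutadapt, RSEM 1.17 on NCBIM37 with Ensembl 65 genes, a filter on low counts and the voom step of limma. The submitters' processing notes also name Picard. Of the 15880 genes, 1645 were counted as not meeting the filter as stated. The low-value filter used here as an alternative kept 14333 genes, and these counts were not reconciled. Whether counting used strand is not given in the sources used here.

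Values plus a pseudocount of 1 were put on the log2 scale and fitted with limma 3.58.1 (lmFit, eBayes with a mean-variance trend) under R 4.3.3, with 4 population means, 4 residual degrees of freedom and Benjamini-Hochberg adjustment over 15880 genes. Tables were made in Python 3.11.15 with pandas 2.3.3 and numpy 2.4.6, exact intervals with scipy 1.17.1 and plots with matplotlib 3.10.9. The fitting steps were tested on simulated data. Whole reads were recovered for 100% of the values within 0.01, and edgeR 4.0.16 (quasi-likelihood) on them called 893 genes for GFP+ Pdgfrα+ over GFP- Pdgfrα+ cells, 3586 for GFP+ Pdgfrα+ over GFP+ Pdgfrα-, 8415 for GFP+ Pdgfrα- over GFP- Pdgfrα-, 9281 for GFP- Pdgfrα+ over GFP- Pdgfrα-, 4182 for GFP+ Pdgfrα- over GFP- Pdgfrα+, 9240 for GFP+ Pdgfrα+ over GFP- Pdgfrα- cells and 6644 for the interaction. Replicates of each population differed by more than sampling noise (a chi-square of 4.15 to 9.21 for each degree of freedom).

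The series' design text says that each independent set of samples was a pool of littermates, and replicate numbers were therefore taken to stand for such pools, shared by the 4 populations. Same-numbered deviations from the population means correlated at 0.00433 to 0.0812, and *Xist*, a transcript of female cells, was high in each replicate 2 and low in each replicate 1. The block for this number was an alternative. Other alternatives were a fit of the compared populations only, no trend, median centring, quantile normalization, a filter on low values (at least 2 in 2 libraries, 14333 genes), a pseudocount of 0.1, each library left out, and edgeR and voom on the recovered reads. A library left alone in its population was assumed to vary like the others.

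The members and the lists of families, receptors, partners, pathways and cell type markers were chosen with earlier results of these data known. The rule for named genes took all members, up to 4 genes per list with the highest mean, and listed genes behind a count of 5 or fewer. Not all genes behind such counts are named here. Genes most like a member were the 3 of highest correlation with it. Protein features were planned and not run. For the TGF-beta list, the counts between the Pdgfrα+ populations are not reported here. Lengths, exons and overlaps of genes were taken from GENCODE M1 on NCBIM37, matched by identifier for 15849 of the 15880 genes.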

Additional observations from a re-analysis of the deposited data

Results flagged for a closer look

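For 7 members the difference between GFP+ and GFP- cells was not the same in the Pdgfrα+ and the Pdgfrα- class, by the interaction term of limma, whose values are the first difference minus the second on the log2 scale. *Postn* had the opposite direction in the 2 classes, -1.29 and 2.23, an interaction of -3.52 (adjusted p = 4.10e-08, limma). *Tgfbi* was -2.12 and 0.33, the latter not called, with an interaction of -2.46 (adjusted p = 5.57e-06, limma). The other 5 had values above 0 among Pdgfrα- cells that were larger than their values among Pdgfrα+ cells. For *Cyr61* the interaction was -4.01 (adjusted p = 8.76e-08, limma), from 0.86 and 4.87. *Tnc* had -3.53 (adjusted p = 1.69e-07, limma), from 0.79 and 4.32. *Sparc* had -1.70 (adjusted p = 0.0011, limma), from 1.15 and 2.86, and its interaction was -2.58 after quantile normalization (adjusted p range 8.05e-06 to 0.0189). For *Ctgf* the term was -2.55 (adjusted p = 6.60e-06, limma) and for *Thbs2* -2.26 (adjusted p = 1.73e-05, limma), with neither called between the Pdgfrα+ populations (-0.13 and -0.23). All 7 rest on the GFP- Pdgfrα- libraries, which held erythroid transcripts and whose part in these values was not tested. Over all genes 25.2% were called below 0 and 19.1% above 0.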

How the results depend on the processing

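Of the members' fold changes under alternatives, 1175 kept their direction and their side of the threshold, 25 lost the call without turning (1 of these, *Sparc* in GFP+ Pdgfrα- over GFP- Pdgfrα+ cells, had a value of 0 with quantile normalization), 7 gained one and 3 turned. *Tgfbi* in GFP+ Pdgfrα- over GFP- Pdgfrα- cells turned to -0.12 with median centring and -0.0674 with quantile normalization. *Smoc2* in the same comparison ranged from -0.25 to 0.0836 with 1 library left out. The cause was not tested, and neither difference was called in the fit reported.

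For GFP+ Pdgfrα+ over GFP- Pdgfrα+ cells the count of members called was 6, with 3 when no trend was used and 2 to 6 with 1 library left out. The count over all genes was 849, with 532 without the trend and 246 to 1083 with 1 library left out. The latter range was 2158 to 4056 for GFP+ Pdgfrα+ over GFP+ Pdgfrα- cells (3848 with all libraries) and 2757 to 4642 for GFP+ Pdgfrα- over GFP- Pdgfrα+ cells (4427). In all 3 the count rose when either GFP- Pdgfrα- library was left out, and the cause was not tested. The other 117 counts of members and 112 counts over all genes stayed within 1.5 times, as did 2458 of the list counts (204 moved further). The list counts that moved further are not all named here. Those between the Pdgfrα+ populations stand beside the range of 246 to 1083 over all genes.

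With the replicate block 924 genes were called for GFP+ Pdgfrα+ over GFP- Pdgfrα+ cells and 3925 for GFP+ Pdgfrα+ over GFP+ Pdgfrα- cells, and apart from the 2 *Thbs1* calls it changed no call of a member. A fit without both GFP- Pdgfrα- libraries, added after seeing the data, called 1126 genes and 6 members for GFP+ Pdgfrα+ over GFP- Pdgfrα+ cells. Depth limits *Smoc2* and *Spon2*, and the family genes *Spock1*, *Wisp3*, *Comp* and *Spon1*, in the populations where they had few reads.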
